A study of Mus musculus with 4 samples.

Results

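The genes described here are 10 contractile genes of smooth muscle, myoepithelium and myofibroblasts, for actin, tropomyosin, calponin, transgelin, caldesmon and myosin-activating proteins. They were chosen by symbol (Acta2, Actg2, Tagln, Myl9, Cnn1, Cnn2, Tpm1, Tpm2, Mylk and Cald1), and all 10 were found among the 23361 genes of the deposited table. RNA was measured in 4 libraries of cultured mammary tumour cells, all of the mouse strain C3HeB/FeJ and all derived from tumours of the Chaos3 mouse, which carries a hypomorphic allele of the replication helicase gene Mcm4. The libraries labelled High come from the add-back clones AB-C1 and AB-C2, with a single library each, after lentiviral delivery of Arid1a. The Arid1a protein belongs to the SWI/SNF (BAF) family of nucleosome remodellers, to which it lends contact with DNA. The libraries labelled Low are duplicates of the control cells, 23116 MT, which are low in Arid1a and are not labelled as transduced. The numbers 1 and 2 only name the libraries, and which High library is which clone is not known here. Nothing in the labels says that the Low duplicates were grown apart, so the p-values measure only how these samples vary, and that variation may be technical.

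Contraction of a smooth-muscle-type cell depends on thin filaments of actin, which are stabilised by tropomyosin and restrained by calponin and caldesmon. Myosin II pulls on these filaments once myosin light-chain kinase has phosphorylated its regulatory light chain. Many of these genes are switched on by serum response factor (SRF) with its myocardin-family partners, which bind a DNA element called the CArG box, and by TEAD factors, which bind the MCAT element. In the mammary gland the program belongs to myoepithelial cells, which squeeze milk from the alveoli, and to myofibroblasts of tumour stroma.

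Promoter sequences were looked up because several members were lower together. RefSeq promoter windows (build GRCm38.p6, 250 bases before to 50 bases after the transcription start) were matched for 8 of the 10 genes (all but Actg2 and Tagln), in 9 windows, Cald1 having 2. The CArG box was searched as 10 letters, CC at the start, GG at the end and 6 letters of A or T between. Its pattern reads the same on both strands. An exact CArG box stood in 2 of the 9 windows (Myl9 and Cnn2), and in 3 of 9 when 1 of the 6 inner letters was allowed to differ (Acta2 as well). Over all 32851 windows of the same length these shares were 1.63% and 9.98%. The MCAT element, searched as CATTCC on either strand, stood in 4 of the 9 windows (Acta2, Tpm1, Mylk and the first window of Cald1) and in 14.7% of all windows. A match describes the letters only and does not show that a factor binds there. No CArG and MCAT match overlapped within a window.

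The windows of the 3 genes with a CArG match follow, 5′ to 3′ on the strand of the gene, with matches to either motif in capitals. The Acta2 window lies at chr19:34255324-34255623 (minus strand), that of Cnn2 at chr10:79988350-79988649 (plus strand) and that of Myl9 at chr2:156775214-156775513 (plus strand).
Acta2: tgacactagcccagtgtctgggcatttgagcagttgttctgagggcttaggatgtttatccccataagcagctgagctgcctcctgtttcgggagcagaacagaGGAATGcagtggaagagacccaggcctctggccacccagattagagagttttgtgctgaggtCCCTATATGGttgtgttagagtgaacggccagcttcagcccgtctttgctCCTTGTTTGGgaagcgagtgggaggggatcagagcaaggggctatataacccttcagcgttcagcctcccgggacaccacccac
Cnn2: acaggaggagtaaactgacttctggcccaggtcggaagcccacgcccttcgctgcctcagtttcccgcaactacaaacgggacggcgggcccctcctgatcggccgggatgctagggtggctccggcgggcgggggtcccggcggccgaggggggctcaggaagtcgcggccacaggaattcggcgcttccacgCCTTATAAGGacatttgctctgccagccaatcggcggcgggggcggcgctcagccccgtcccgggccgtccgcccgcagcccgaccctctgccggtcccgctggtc
Myl9: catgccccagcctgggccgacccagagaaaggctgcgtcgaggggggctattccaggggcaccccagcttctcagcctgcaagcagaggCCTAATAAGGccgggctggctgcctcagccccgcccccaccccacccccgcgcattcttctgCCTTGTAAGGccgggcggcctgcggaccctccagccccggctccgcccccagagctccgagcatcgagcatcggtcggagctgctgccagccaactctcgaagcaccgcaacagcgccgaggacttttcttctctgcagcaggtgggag
In the Acta2 window the first capitals are the MCAT match, starting 146 bases before the transcription start, and the 2 following ones are CArG-like, starting 84 and 34 bases before it. The exact CArG box of Cnn2 starts 56 bases before the transcription start. In Myl9 the exact box starts at 161 bases and the CArG-like match at 99 bases before it. These distances count from the RefSeq start that defines each window. The GENCODE genes of Acta2, Cnn2 and Myl9 start elsewhere (34255590, 79988584 and 156775420), so the distances hold for the RefSeq start only. The Mylk window (chr16:34784700-34784999) lies inside its GENCODE gene, which starts at 34745210.

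**Figure D1:**
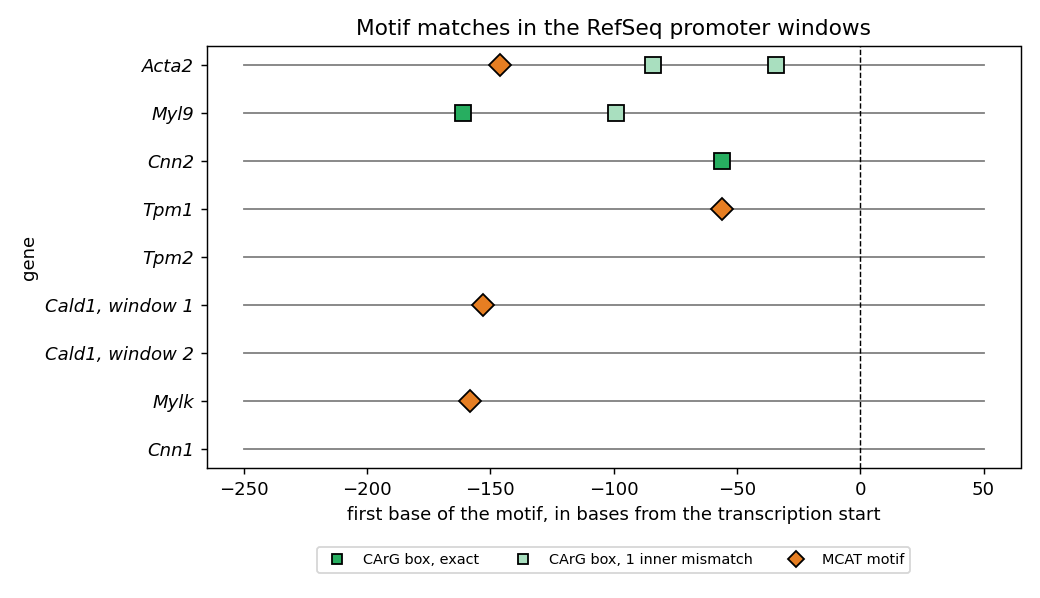
Motif matches in the 9 RefSeq promoter windows, 1 line per window, by the distance in bases of the motif's first base from the transcription start (dashed line). Squares are CArG matches, dark for an exact match (Cnn2 and Myl9) and pale for 1 inner mismatch (Acta2 and Myl9), and diamonds are MCAT matches.

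The libraries held 16523077 and 24307251 fragments in the High group and 13889858 and 28110812 in the Low group. Arid1a itself, the check of the labels, was at 6.16 and 7.22 FPKM in the libraries labelled High, against 10.3 and 11.7 FPKM in those labelled Low (adjusted p = 0.165). FPKM is the authors' level, in which fragments are scaled to transcript length and library depth. The counted gene was thus not higher under the High label, and whether the vector's transcript was counted as Arid1a is not known, so the directions below are given for the libraries labelled High. The coefficient of biological variation that edgeR estimated was 42.8% for the High pair alone and 17.3% for the Low pair alone. Of the keratins read as luminal or basal markers, the luminal Krt8 and Krt18 and the basal Krt14 were present in every library, each at 137.7 FPKM or more. The luminal Krt19 was at 14.5 to 59.7 FPKM. The basal keratins Krt5 (0 to 0.505 FPKM) and Krt17 (0.440 to 1.28 FPKM) were far below Krt14. The endothelial markers Pecam1, Cdh5, Kdr and Tek summed to 0.0548 and 0.0912 FPKM in the High group and to 0.0989 and 0.226 FPKM in the Low group.

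The 10 genes differed widely in level. Not all of them are particular to smooth-muscle-type cells, Cnn2 for example acting in other cells as well. Levels are per gene, so isoforms of a gene are not told apart. In FPKM, Tpm1 stood first in every library, at 988 and 1059 in the libraries labelled High and 2223 and 2028 in those labelled Low. Acta2 came second in the Low libraries, where Cald1 and Cnn2 followed it. In the High libraries Cald1 came next after Tpm1 and was followed by Cnn2, with Acta2 below both. Tpm2, Tagln, Myl9 and Actg2 were at 11.3 to 24.3 FPKM in the Low libraries and at 0.433 to 9.73 FPKM in the High libraries. Mylk and Cnn1 lay below 1 FPKM in every library. Summed over the 10 genes, the level was 1405 and 1332 FPKM in the High libraries and 3365 and 3058 FPKM in the Low libraries. Tpm1 alone was 70.3% and 79.5% of that sum in the High libraries and 66.1% and 66.3% in the Low libraries. Without Tpm1 the sum was 417 and 273 FPKM in the High libraries and 1142 and 1030 FPKM in the Low libraries.

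**Figure D2:**
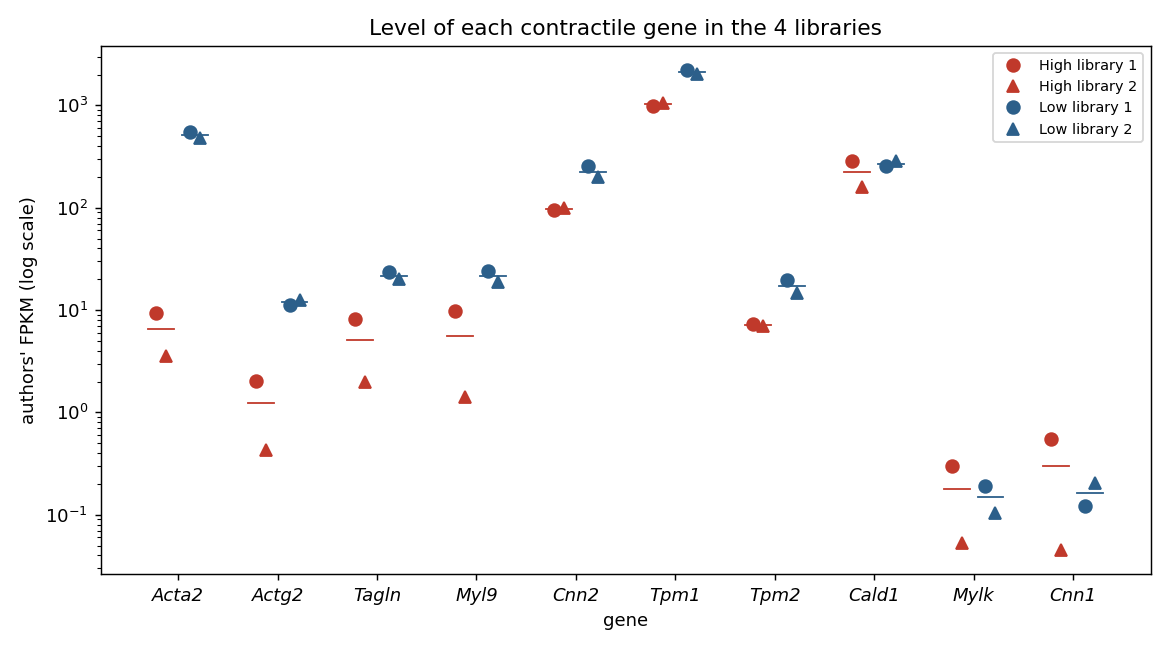
The authors' FPKM (log scale) of the 10 genes in each of the 4 libraries, with High (red) left of Low (blue), circles for library 1, triangles for library 2 and a line at the mean of each pair. Both High points lie below both Low points for Acta2, Actg2, Tagln, Myl9, Cnn2, Tpm1 and Tpm2.

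The first comparison was that of the add-back clones with the control line. Of the 10 genes, 9 held enough fragments to be tested, Cnn1 being too low. In the libraries labelled High, Acta2 and Cnn2 fell, 0 of the 9 rose and the other 7 did not pass edgeR's quasi-likelihood test with Benjamini-Hochberg adjustment over 12987 genes. Over all tested genes, 1.33% fell and 1.14% rose. At an unadjusted p under 0.05, 6 of the 9 were lower and 0 higher, against 8.16% lower and 9.92% higher over all tested genes. DESeq2 called 6 of the 9 lower, against 4.04% of all genes, and limma-voom called 4 of the 9 lower, against 1.54%. Both High libraries lay below both Low libraries for 7 of the 9 genes, against 25.1% of all tested genes. The median log2 fold change of the 9 was -1.25, against 0.03 over all tested genes. The members that passed the filter are not all members, and these counts describe the list only.

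Acta2 encodes alpha smooth-muscle actin, the actin isoform that defines myofibroblasts and myoepithelial cells. It lies on the minus strand of chromosome 19 (34241090 to 34255590, mm10, ENSMUSG00000035783.9). It had 389 and 212 fragments in the libraries labelled High, against 17964 and 31506 in those labelled Low. These are 22.7 and 8.63 CPM (fragments scaled to library size after TMM normalization) in the High libraries and 1320 and 1153 CPM in the Low libraries. The groups were far apart, and within the High pair library 1 was the higher. By FPKM, Acta2 ranked 7006th and 9445th among all genes in the High libraries and 136th and 146th in the Low libraries. It averaged 15.7 ± 9.97 CPM in the High group and 1236 ± 118 CPM in the Low group (SD, n = 2 each), a log2 fold change of -6.31 ± 0.57 (SE), 79.2-fold lower (adjusted p = 0.00976). The call was lost without Low library 1 (adjusted p = 0.376) or Low library 2 (adjusted p = 0.318), where edgeR called 0 genes at all (970 and 800 at an unadjusted p under 0.05), while the fold change stayed between -5.77 and -7.16 with any single library left out. In the fits without a Low library the spread rests on the High pair alone. The call held with the replicate number as a block (adjusted p = 1.47e-06) but not with those numbers crossed (adjusted p = 0.0666). The crossing was chosen after seeing the data. In bulk RNA such as this, fewer cells that express a gene and less RNA per cell cannot be told apart.

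Actg2, the gamma actin of enteric smooth muscle, lies on chromosome 6 (83512905 to 83536265, minus strand, mm10). It had 39 and 12 fragments in the High libraries and 173 and 388 in the Low libraries. That is 2.28 and 0.489 CPM in the High libraries, against 12.7 and 14.2 CPM in the Low libraries, with no overlap between the groups. Its log2 fold change was -3.31 ± 0.73 (SE), outside the threshold by edgeR (adjusted p = 0.0779). With 1 library left out, the log2 fold change was -4.77 without High library 1, -2.57 without High library 2, -3.37 without Low library 1 and -3.22 without Low library 2. In the fits without a High library the spread rests on the Low duplicates alone. With all 4 libraries, Actg2 passed with DESeq2 (adjusted p = 0.000209), limma-voom (adjusted p = 0.0377) and limma on log2(FPKM + 1) (adjusted p = 0.0301). It did not pass with limma on log2(FPKM + 0.1) (adjusted p = 0.1175).

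Actin genes resemble each other, so fragments can be split between them. The longest reading frame of Acta2 was identical to that of Actg2 at 84.2% of aligned bases, with a longest identical run of 29 bases, and to that of the cytoplasmic actin Actg1 at 81.5%, with a longest run of 56 bases. Acta1, the actin of skeletal muscle, was at 1.35 and 1.89 FPKM in the High libraries and 0.913 and 0.540 FPKM in the Low libraries (adjusted p = 0.429). Actb and Actg1, the cytoplasmic actins of every cell, were at 3020 and 3638 FPKM (Actb) and 1693 and 1646 FPKM (Actg1) in the High libraries, against 4768 and 3914 FPKM (Actb) and 2611 and 2302 FPKM (Actg1) in the Low libraries. Neither cytoplasmic actin passed the test (log2 fold changes -0.37 and -0.55, adjusted p = 0.450 and 0.245). Acta2 made up 0.200% and 0.0679% of the FPKM of the 6 actins in the High libraries and 6.96% and 7.20% in the Low libraries.

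Tagln, or SM22-alpha, is an actin-binding protein and an early marker of smooth-muscle differentiation. It had 196 and 69 fragments in the High libraries and 445 and 761 in the Low libraries. At 11.4 and 2.81 CPM in the High libraries and 32.7 and 27.8 CPM in the Low libraries, its groups did not overlap, but the High libraries differed more from each other than the Low libraries did. The log2 fold change was -2.09 ± 0.68 (SE, adjusted p = 0.209 by edgeR). DESeq2 called Tagln lower (adjusted p = 0.0127) and limma-voom did not (adjusted p = 0.0836). Tagln shares 108 bases with the protease gene Pcsk7 on the opposite strand, and Pcsk7 was at 11.5 and 10.4 FPKM in the High libraries and 13.5 and 11.3 FPKM in the Low libraries. The library kit keeps the strand, but whether the counting used it is not given in the sources used here.

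Myl9 encodes the smooth-muscle regulatory light chain of myosin II, the chain that myosin light-chain kinase phosphorylates. It had 149 and 31 fragments in the High libraries and 293 and 452 in the Low libraries. At 8.70 and 1.26 CPM in the High libraries and 21.5 and 16.5 CPM in the Low libraries, it showed the widest gap within the High pair of the genes that passed in the test between the High libraries. Set against the Low group, Myl9 had a fold change of -1.94 ± 0.93 on the log2 scale (SE, adjusted p = 0.378 by edgeR). With 1 High library left out, the log2 fold changes of Tagln and Myl9 were -3.42 and -3.90 (without High library 1) and -1.41 and -1.13 (without High library 2). Those fits take the spread from the Low duplicates alone and assume that the lone High library varies like them, so their calls do not cover the difference between the High libraries.

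Cnn2 encodes calponin 2, which binds actin in smooth-muscle and other cells. It fell, by less than Acta2. It had 2627 and 3936 fragments in the High libraries and 5505 and 8606 in the Low libraries (chromosome 10, 79988584 to 79996062, mm10). The High libraries stood close together at 153 and 160 CPM, below the Low libraries at 404 and 315 CPM. It averaged 157 ± 4.80 CPM in the High group and 360 ± 63.3 CPM in the Low group (SD, n = 2 each), with a log2 fold change of -1.20 ± 0.23 (SE), 2.29-fold lower (adjusted p = 0.0447). Besides the fits without a Low library, limma on log2(FPKM + 1) lost the call (adjusted p = 0.0623), as did limma on log2(FPKM + 0.1) (adjusted p = 0.117). The call was also lost with the replicate number as a block (adjusted p = 0.0617) and with those numbers crossed (adjusted p = 0.0677).

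The tropomyosins Tpm1 and Tpm2 wind along the actin filament and set where myosin and other proteins can bind. Tpm1 had 25467 and 39122 fragments in the High libraries and 45441 and 83241 in the Low libraries. Its level was 1488 and 1593 CPM in the High libraries and 3338 and 3045 CPM in the Low libraries, so the groups were apart by far more than either pair's spread. The log2 fold change of -1.05 ± 0.22 (SE) lay just outside the threshold by edgeR (adjusted p = 0.0553). Tpm1 passed with DESeq2 (adjusted p = 3.22e-05), limma-voom (adjusted p = 0.0466) and edgeR without the low-count filter (adjusted p = 0.0128). It did not pass with limma on log2(FPKM + 1) (adjusted p = 0.0676) or log2(FPKM + 0.1) (adjusted p = 0.125). Nor did it pass with the replicate number as a block (adjusted p = 0.123). Tpm2 was at 13.96 and 13.4 CPM in the High libraries and 37.4 and 27.8 CPM in the Low libraries. Its log2 fold change was -1.25 ± 0.29 (SE, adjusted p = 0.0747 by edgeR). DESeq2 called Tpm2 (adjusted p = 0.00425), as did edgeR without the low-count filter (adjusted p = 0.0188). Limma-voom did not (adjusted p = 0.0813), nor did limma on log2(FPKM + 1) (adjusted p = 0.0723) or log2(FPKM + 0.1) (adjusted p = 0.117). The fit with the replicate number as a block did not call Tpm2 either (adjusted p = 0.113). The log2 fold change lay between -1.05 and -1.25 for Cnn2, Tpm1 and Tpm2, and for each of them the High libraries were closer to each other in CPM than to either Low library.

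Cald1 encodes caldesmon, which restrains myosin's action on actin. It had 18915 and 15119 fragments in the High libraries and 13409 and 29884 in the Low libraries. At 1105 and 615 CPM in the High libraries and 985 and 1093 CPM in the Low libraries, the groups overlapped, with High library 2 below the other 3 libraries. The log2 fold change was -0.27 ± 0.31 (SE, adjusted p = 0.691).

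Mylk, the kinase that activates the regulatory light chain, had 40 and 10 fragments in the High libraries and 20 and 22 in the Low libraries. At 2.34 and 0.407 CPM in the High libraries and 1.47 and 0.805 CPM in the Low libraries, the groups overlapped (log2 fold change 0.27 ± 0.95, SE, adjusted p = 0.917). Cnn1, the calponin of differentiated smooth muscle, had 17 and 2 fragments in the High libraries and 3 and 10 in the Low libraries. Kept in a fit without the low-count filter, it had a log2 fold change of 0.80 ± 1.48 (SE, adjusted p = 0.826).

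**Figure D3:**
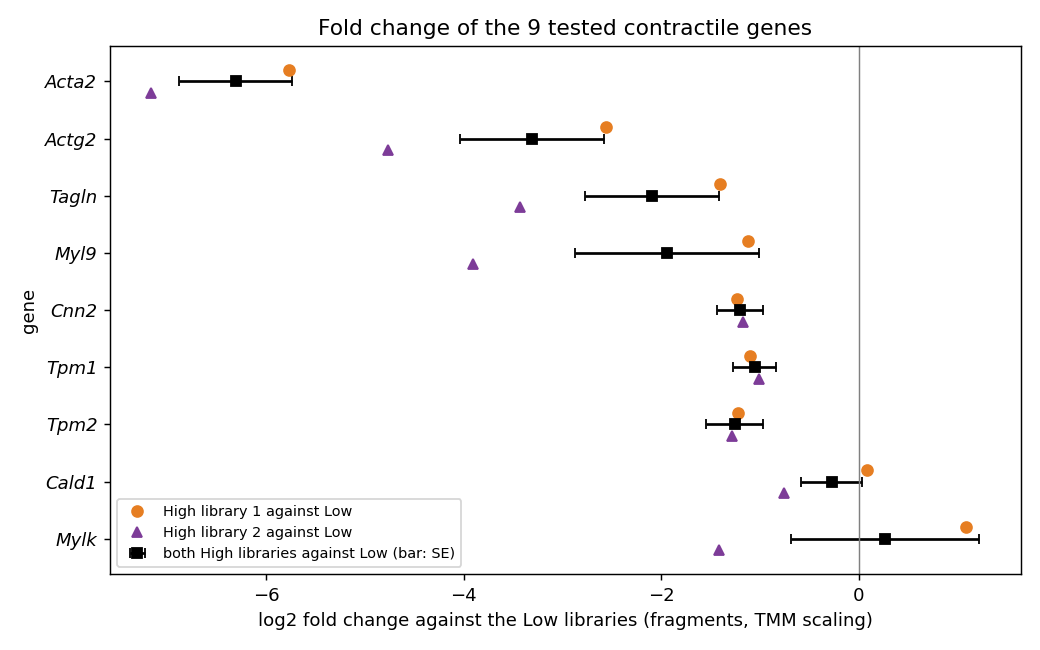
Log2 fold change of the 9 tested genes against the Low libraries, for both High libraries together (black squares, bars of 1 SE), High library 1 alone (orange circles) and High library 2 alone (purple triangles). The High libraries lie apart for Acta2, Actg2, Tagln and Myl9, and also for Mylk and Cald1, whose difference did not pass the test between them. For Cnn2, Tpm1 and Tpm2 they lie together.

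The second comparison was between the 2 High libraries, which are labelled as separate clones. It used a fit with 3 groups, in which the spread rests on the Low duplicates and a lone High library is assumed to vary as they do (1 residual degree of freedom). Acta2, Actg2, Tagln and Myl9 were higher in High library 1, 0 of the 9 genes were lower there and 5 did not pass. Over all tested genes, 6.47% were higher and 4.46% lower in High library 1. Myl9 was 6.87-fold higher in High library 1 than in High library 2 (log2 difference 2.78 ± 0.50, SE, adjusted p = 1.21e-06). Actg2 was 4.62-fold higher (2.21 ± 0.64, adjusted p = 0.00812), Tagln 4.07-fold (2.02 ± 0.44, adjusted p = 0.000117) and Acta2 2.63-fold (1.40 ± 0.35, adjusted p = 0.00150).

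Against the Low libraries, Acta2 was 54.4-fold lower in High library 1 and 143-fold lower in High library 2. Actg2 was 5.90-fold and 27.3-fold lower, Tagln 2.64-fold and 10.7-fold lower, and Myl9 2.18-fold and 15.0-fold lower. These folds share the Low libraries, restate the difference between the High libraries and are no second test of it. Cald1 (log2 difference 0.84 ± 0.32, adjusted p = 0.0698) and Mylk (2.50 ± 0.96, adjusted p = 0.0713) leaned the same way without passing. Cnn2, Tpm1 and Tpm2 had differences of -0.06 ± 0.34, -0.10 ± 0.30 and 0.06 ± 0.39 between the High libraries (SE, adjusted p = 0.955, 0.909 and 0.964).

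Members of 5 gene families were set beside their relatives, most of which are made by many cell types. Tpm1 made up the largest part of its family, with 58.0% and 63.2% of tropomyosin FPKM in the High libraries and 68.4% and 65.4% in the Low libraries. Tpm4 made up 27.5% and 19.0% in the High libraries and 19.6% and 22.9% in the Low libraries. Cnn2 made up 33.2% and 45.1% of calponin FPKM in the High libraries and 45.2% and 38.9% in the Low libraries. Cnn3, the calponin of non-muscle cells, exceeded Cnn2 in every library, at 192 and 122 FPKM in the High libraries and 308 and 311 FPKM in the Low libraries (log2 fold change -0.97 ± 0.27, adjusted p = 0.124). Tagln2 made up at least 94.9% of transgelin FPKM in every library, at 155 and 212 FPKM in the High libraries and 489 and 389 FPKM in the Low libraries (log2 fold change -1.25 ± 0.26, adjusted p = 0.0553). Of the regulatory light chains, Myl9 made up 2.54% and 0.345% in the High libraries and 3.69% and 3.80% in the Low libraries, the rest being the non-muscle chains Myl12a and Myl12b. Neither of these passed (log2 fold changes -0.74 and -0.03, adjusted p = 0.172 and 0.969).

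**Figure D4:**
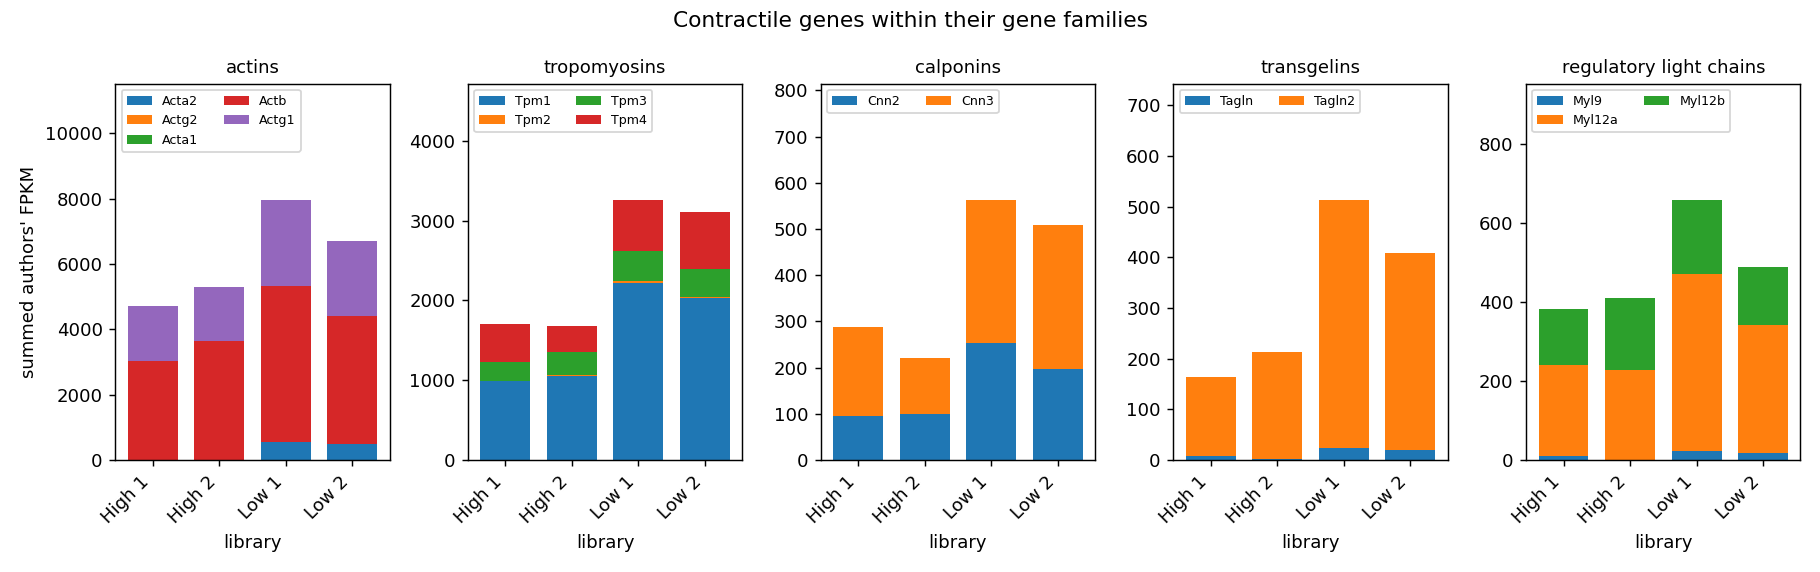
Summed authors' FPKM of 5 gene families in each library, High left of Low, stacked by gene (genes that stay under 1 FPKM in every library are not drawn). Acta2 is a visible band only in the Low libraries, Tpm1 is the largest band of the tropomyosins throughout, and Tagln and Myl9 are small bands beside Tagln2 and the Myl12 genes.

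Other genes of the contractile apparatus and its control were taken from lists. Of 16 tested thin-filament and actin-bundling genes, 0 rose, 1 fell and 15 did not pass (median log2 fold change -0.63). The faller, Csrp1, a LIM protein of smooth muscle, was at 45.2 and 28.6 FPKM in the High libraries and 260 and 182 FPKM in the Low libraries (5.95-fold lower, adjusted p = 0.0104). Of 9 myosin II genes, Myh14 rose, Myh9 fell and 7 did not pass (median 0.20). Myh9, the main non-muscle heavy chain, was at 121 and 107 FPKM in the High libraries and 290 and 256 FPKM in the Low libraries (2.38-fold lower, adjusted p = 0.0349). Myh14, a non-muscle heavy chain of epithelia, was at 8.72 and 14.3 FPKM in the High libraries and 2.63 and 2.18 FPKM in the Low libraries (4.83-fold higher, adjusted p = 0.0140).

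Among the regulators of the program, 0 of 8 tested SRF and myocardin-family genes passed edgeR's test (median -0.15). Srf was at 17.3 and 18.4 FPKM in the High libraries and 29.5 and 24.1 FPKM in the Low libraries (log2 fold change -0.58 ± 0.22, adjusted p = 0.234). Its coactivator Mkl1 was at 12.6 and 15.6 FPKM in the High libraries and 20.0 and 16.2 FPKM in the Low libraries (adjusted p = 0.516). Fhl2, a LIM-only cofactor, had a log2 fold change of -0.16 (adjusted p = 0.809). Myocardin itself, Myocd, had 4 and 1 fragments in the High libraries and 0 and 1 in the Low libraries. Of 13 focal adhesion and non-contractile SRF target genes, 0 rose and 3 fell (median -0.75). These were the actin linker Tns1 (6.09-fold, adjusted p = 0.0229), the fibronectin receptor subunit Itga5 (4.80-fold, adjusted p = 0.00622) and the matricellular gene Ctgf (3.53-fold, adjusted p = 0.0148). Of 11 TGF-beta ligands, receptors and Smads, Tgfb1 fell (16.2 and 13.3 FPKM in the High libraries, 43.6 and 31.8 FPKM in the Low libraries, adjusted p = 0.0489) and 10 did not pass (median 0.03).

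Markers of other cell types were read in the same libraries. Of 9 smooth-muscle markers, 4 were tested and 0 passed edgeR's test, with summed levels of 30.2 and 37.6 FPKM in the High libraries and 45.3 and 35.5 FPKM in the Low libraries. Most of that sum was Smtn (smoothelin) and the small heat-shock protein gene Hspb6, with adjusted p = 0.589 and 0.762, and Casq2, a calsequestrin, had adjusted p = 0.146. The smooth-muscle myosin heavy chain Myh11 had 15 and 16 fragments in the High libraries and 5 and 25 in the Low libraries, and the leiomodin Lmod1 had at most 2 fragments in any library. In FPKM, Myh11 was at 0.135 and 0.101 in the High libraries and 0.0571 and 0.142 in the Low libraries. Of 7 myoepithelial and basal markers, P-cadherin (Cdh3) rose 3.71-fold (adjusted p = 0.0491 by edgeR) and 6 did not pass. The 7 had a median log2 fold change of 1.30, with Krt17 alone lower (-0.51). Their summed level was 884 and 1808 FPKM in the High libraries and 667 and 422 FPKM in the Low libraries, nearly all of it Krt14. Of 9 fibroblast markers, 7 were tested, and Fap fell (7 and 2 fragments in the High libraries, 244 and 702 in the Low libraries, adjusted p = 0.00738). Their sum was 1292 and 879 FPKM in the High libraries and 1489 and 1309 FPKM in the Low libraries, with Lum listed at 0 in each. The calcium-binding protein gene S100a4 held most of the High sums, at 1081 and 797 FPKM in the High libraries and 559 and 471 FPKM in the Low libraries (adjusted p = 0.124). The median log2 fold change of the 7 tested was -2.59, with genes in both directions. Besides Fap, the lower ones were Col1a1, Col1a2 (log2 fold change -2.74) and Postn (-2.59). The higher ones were S100a4, Dcn and Pdgfra (0.56), and apart from Fap none passed. The collagen gene Col1a1 was at 13.9 and 3.53 FPKM in the High libraries and 557 and 471 FPKM in the Low libraries (adjusted p = 0.0717). The proteoglycan gene Dcn was at 117.5 and 11.5 FPKM in the High libraries and 2.48 and 3.40 FPKM in the Low libraries (adjusted p = 0.251). Of 6 pericyte markers, 3 were tested, and Cspg4 fell (3 and 19 fragments in the High libraries, 108 and 187 in the Low libraries, adjusted p = 0.0424). Pericyte markers summed to 104 and 25.3 FPKM in the High libraries and 214 and 201 FPKM in the Low libraries, with Rgs5 at 0 and 2 fragments in the High libraries and listed at 0 in both Low libraries. Luminal markers (7 tested, 0 passed edgeR's test) summed to 448 and 1305 FPKM in the High libraries and 960 and 675 FPKM in the Low libraries, with Krt8, Krt18 and Epcam the highest (adjusted p = 0.993, 0.886 and 0.216). Striated-muscle markers (3 tested, 0 passed) summed to 35.8 and 5.02 FPKM in the High libraries and 2.71 and 2.28 FPKM in the Low libraries. In High library 1 most of that sum was Myod1 (27.1 FPKM), which was not tested and is described in the closing section. The tested ones were Acta1, Myh1 and Mylpf (adjusted p = 0.429, 0.434 and 0.559 by edgeR). Of the leukocyte markers, Cd68 alone was tested (adjusted p = 0.959), and the list summed to 1.64 and 0.589 FPKM in the High libraries and 0.934 and 1.14 FPKM in the Low libraries. The part of these cell types in the falls of Acta2 and Cnn2 was not tested.

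The genes whose pattern came closest to that of Acta2 were found by the distance between mean-centred log2 CPM profiles over the 4 libraries. The 5 nearest of the tested genes outside the list were Lrrc15 (distance 0.453), Col1a1 (0.499), Fap (0.584), Armcx4 (1.07) and Cthrc1 (1.08). Lrrc15, a surface protein known from cancer-associated fibroblasts, was at 0.643 and 0.204 CPM in the High libraries and 30.4 and 37.4 CPM in the Low libraries. Col1a1, a chain of type I collagen, was at 63.5 and 16.1 CPM in the High libraries and 2521 and 2133 CPM in the Low libraries. Distances over 4 libraries, 2 of them duplicates, describe these libraries only.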

How the data were processed

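RNA from 4 libraries of cultured mouse mammary tumour cells was analysed from the table of genes the authors deposited. Per the submitters' processing notes, cutadapt 1.5, TopHat2 2.0.13 and Cuffdiff 2.2.1 were used with build mm10. Neither the annotation nor the strand setting of the counting is stated in what was used here. Per the file headers, the table gives estimated counts of fragments per gene and library, the authors' scaled signal (fragments times a factor per library, 0.7291 to 1.4646) and FPKM. Of the estimated counts, 99.18% were whole within 1e-06, and all were rounded before testing. The 11 genes with a failed status in a library include 0 of the members, and 0 columns of per-sample values were left unused for want of a sample.

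The main test was edgeR's two-sided quasi-likelihood test (edgeR 4.0.16, limma 3.58.1, DESeq2 1.42.0, R 4.3.3), robust, with TMM scaling and edgeR's low-count filter (smallest count 10). It was fitted over 12987 genes with 2 residual degrees of freedom, and p-values were adjusted over all of them at 0.05. An exact permutation test was not used, since 2 libraries against 2 allow no small p. The script was tested on simulated data. A standard error (SE) is the log2 fold change divided by the root of the test's F. Alternatives were DESeq2, limma-voom, limma on log2(FPKM + 1) and log2(FPKM + 0.1), other scalings, no filter, each library left out and the replicate number as a block. Both pairs differed beyond sampling noise before averaging (chi-square over genes divided by its degrees of freedom, 129 in the High pair and 33.4 in the Low pair), and none were merged.

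All 10 members were named. In each further list, the genes that passed were named, or, where none passed, up to 3 tested genes with the highest mean FPKM. Other genes were added after their values were seen (the non-muscle relatives, Myocd, Myh11, Lmod1, Lum, Rgs5, Krt14, Krt5, Krt17, Krt19, S100a4, Dcn, Col1a2, Postn, Pdgfra, the endothelial markers, Pcsk7 and, in the closing section, Myod1, Des, Tnnt3, Myog and Tgfbr2). The members and lists were chosen with earlier results of these data known. The result of 1 further list is not reported here. Gene positions are from GENCODE M21 and promoters from RefSeq, both on the build the authors used. Actin reading frames were aligned from GENCODE transcripts.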

Additional observations from a re-analysis of the deposited data

Results flagged for a closer look

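Members whose change against the Low libraries differed between the 2 High libraries stood out by the test of that difference itself, in the fit with 3 groups. The log2 difference, High library 1 minus High library 2, was 1.40 for Acta2, 2.21 for Actg2, 2.02 for Tagln and 2.78 for Myl9, with edgeR's adjusted p of 0.00150, 0.00812, 0.000117 and 1.21e-06. All 4 were lower in both High libraries than in either Low library, as were 25.1% of all tested genes. High library 2 was thus the lowest of the 4 libraries for each, which restates the difference that flagged them.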

How the results depend on the processing

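Acta2 kept its direction under all 13 alternatives and its call in 10 of them, and Cnn2 kept its direction in 13 and its call in 7. Scaling with DESeq2's size factors or the authors' factors left the same 2 members called, Acta2 and Cnn2. The members called lower numbered 5 without the low-count filter, 6 with DESeq2, 4 with limma-voom and 1 with limma on log2(FPKM + 0.1), against 2 in the test as reported. Over all genes, 321 of 12987 tested were called as reported, 814 of 16680 without the filter and 1136 of 12987 with DESeq2. With 1 library left out, the members called lower ran from 0 to 7 and the genes called from 0 to 2475. Without Low library 1 or Low library 2 edgeR called 0 genes and 0 members (at an unadjusted p under 0.05, 970 and 800 genes and 4 and 5 members), and without High library 1 or 2 it called 2193 and 2475 genes and 7 members each. Without a Low library, the spread comes from the High pair alone (coefficient of variation 42.8%, against 17.3% for the Low pair). The cause of the differing counts was not tested. The fits without High library 1 or 2 tested 13459 and 13273 genes and take their spread from the Low duplicates alone. Their member counts cannot be set beside the 2 members reported. Mylk turned to -0.19 with limma-voom, to -0.12 with the replicate block, and ran from -1.42 to 1.08 with a library left out. Cald1 ran from -0.75 to 0.08. The call count between the High libraries stayed at 4 under the 3 alternatives run. Leaving out a Low library there leaves no residual degrees of freedom, so it was not run.

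Library numbers within a group mark clones or duplicates, not a shared source, and pairing by them is arbitrary. With the replicate block, 469 genes and 3 members (Acta2, Actg2 and Tagln) were called, all 3 members lower. The within-group differences of the 2 groups correlated at -0.14 across genes. With crossed numbers, an alternative chosen after seeing the data, the block called 94 genes and 0 members (2698 of 12987 genes and 6 members at an unadjusted p under 0.05), with Mylk at -0.07. Cnn1 had at most 17 fragments in any library and Mylk at most 40.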

Other observations

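Some muscle genes were highest in High library 1, and those named next were singled out after their values were seen. The 3 tested striated-muscle markers were present in all 4 libraries and were divided. Acta1 (30 and 60 fragments in the High libraries, 16 and 19 in the Low libraries) and Mylpf (24 and 36, against 11 and 20) were highest in High library 2. Myh1 was highest in High library 1, at 1.81 and 0.855 CPM in the High libraries and 0.588 and 0.439 CPM in the Low libraries. Myod1, the master transcription factor of skeletal muscle, had 778 fragments (27.1 FPKM) in High library 1 and 4 in High library 2, and was listed at 0 in both Low libraries. Tnnt3, a fast skeletal troponin T, had 61 and 6 fragments in the High libraries and 2 and 7 in the Low libraries. Des, the intermediate filament desmin of muscle cells, had 25 and 1 fragments in the High libraries and was listed at 0 in both Low libraries. Myog, a later myogenic factor, had 3 and 0 fragments in the High libraries and 0 in the Low libraries. The striated-muscle genes Myh4, Myh6 and Ckm were listed at 0 in all 4 libraries. Myod1, Tnnt3, Des and Myog did not pass the low-count filter and were not tested.

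The TGF-beta receptor gene Tgfbr2, also singled out after its value was seen, was at 180 and 78.1 FPKM in the High libraries and 28.7 and 30.6 FPKM in the Low libraries, opposite in direction to Tgfb1, without passing edgeR's test (log2 fold change 2.14, adjusted p = 0.0653).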
